A study of Mus musculus with 4 samples.

Results

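The genes described here are 41 genes of central carbon metabolism, chosen by name to cover glucose entry, glycolysis, pyruvate dehydrogenase and its kinases, the citrate cycle, and the enzymes that make oxaloacetate, phosphoenolpyruvate and glycerol phosphate. Of the 41 genes, 40 were matched by the gene name in the array files, among 18520 named genes on the array. The exception was Pck1, the cytosolic phosphoenolpyruvate carboxykinase, whose expression is not analysed here. A value on all 4 arrays was obtained for 38 genes, and 36 of these were well above background on all 4 arrays by the scanner software's own test.

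RNA was taken from 3T3-L1 cells, an established mouse preadipocyte line, on day 2 of differentiation, and was hybridized to 1 Agilent single-color array per condition. All cultures had received 10 μg/ml insulin, 1 μM dexamethasone and, per the labels, 0.5 μM IBMX to induce adipogenesis, with DMSO at 0.1%. The groups were the DMSO control, 100 μg/ml bilberry extracts (labelled BB), 100 nM delphinidin (Del) and 100 nM cyanidin (Cya). Because each condition was 1 array of 1 culture, the differences given below come without replicates and without p-values. The 3 treatments are each set against the same DMSO array, so their ratios share its error.

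Glycolysis splits glucose into pyruvate in the cytosol, with a net yield of ATP and NADH. Pyruvate is either reduced to lactate or carried into mitochondria, where the pyruvate dehydrogenase complex turns it into acetyl-CoA for the citrate cycle, and the pyruvate dehydrogenase kinases shut that complex off by phosphorylation. In cells on the way to becoming adipocytes, insulin promotes glucose uptake, citrate leaving the mitochondria supplies carbon for fatty acid synthesis, and triose phosphates supply the glycerol backbone of triglyceride.

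With bilberry extracts, 14 of the 17 glycolysis genes lay above the median ratio of all genes, led by the glucose transporter Slc2a1, which was 2.83 times as high as with DMSO under the scaling used here, while the citrate cycle genes were spread around that median and the 3 pyruvate dehydrogenase subunits, by their brightest probes, lay below it. The 14 became 6 under the original normexp background correction. Under spike-in scaling 14 lay above that median, but 0 of the 17 lay above DMSO and the log2 ratio of Slc2a1 was -0.12. Genes of the same pathways outside the 41 were not split between glycolysis and the citrate cycle in this way. With bilberry extracts 14 other pyruvate dehydrogenase and citrate cycle genes had a median log2 ratio of 0.36. The median was -0.28 for 9 other glycolysis isozymes and regulators, against 0.17 for all genes. With cyanidin, 15 of the 17 glycolysis genes lay below the median of all genes, and all 9 citrate cycle genes and all 3 pyruvate dehydrogenase subunits lay above it, each by less than 2-fold. Eno2, the neuronal form of enolase, was 2.14 times lower with bilberry extracts, 2.24 times lower with delphinidin and 1.88 times lower with cyanidin. Pdk4 was also lower with each treatment, by 1.46 to 1.58 times.

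Signals are given below as scaled log2 values, that is, the log2 of the background-subtracted signal minus the log2 of the 75th percentile of that array. A scaled log2 value of 0 is therefore a probe at the 75th percentile, and values of different genes are not set against each other because probes differ in how well they hybridize. A ratio is the difference between the scaled log2 values of a treatment and DMSO, and a gene was called when it passed 2-fold (a log2 ratio of 1). The software's own estimate of spot error gave an error of 0.204 to 0.219 for a member's log2 ratio between bilberry and DMSO. It covers a spot, and not the difference between cultures.

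The arrays were not alike in overall signal. The 75th percentile was 861 intensity units with DMSO, 576 with bilberry extracts, 1009 with delphinidin and 1016 with cyanidin. After scaling, the median log2 ratio of all genes well above background was 0.17 with bilberry extracts, -0.01 with delphinidin and 0.02 with cyanidin, and members are compared with these medians. The labels call the cells adipocytes. Well above background on every array were 7 of 7 adipocyte markers with a value and 8 of 8 preadipocyte or fibroblast markers. The like count was 2 of 4 macrophage, 1 of 4 muscle (Acta1), 1 of 3 epithelial (Krt14) and 0 of 4 endothelial markers. The summed linear level of the adipocyte markers, in units of the 75th percentile, was 405 with DMSO, 285 with bilberry extracts, 447 with delphinidin and 486 with cyanidin, and that of the preadipocyte markers was 845, 961, 805 and 741. These sums are led by their brightest genes: Fabp4, a fatty acid carrier of adipocytes, had a bilberry log2 ratio of -0.95 and the collagen gene Col1a2 had 0.54, while the median bilberry ratios of the lists were 0.02 and -0.06. Past 2-fold with bilberry extracts were Adipoq, the hormone adiponectin, at -1.07, the fibroblast marker Thy1 at -1.2 and the macrophage marker Csf1r at 1.16, from a scaled log2 signal of -5.86 with DMSO to -4.70. Of the other macrophage markers, Cd68 had a bilberry log2 ratio of -0.09 and Emr1 and Ptprc were well above background on none of the arrays. The part of these marker values in the member ratios was not tested. In bulk RNA, fewer cells of one kind and less RNA per cell cannot be told apart.

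Glucose entry gave the highest member ratio of the series. Slc2a1 (GLUT1) is the transporter that carries glucose into most cells in the basal state, and its probe lies at chr4:118635191-118635250 (mm8). Its scaled log2 signal was 3.17 with DMSO, 4.67 with bilberry extracts, 3.71 with delphinidin and 3.06 with cyanidin. The bilberry array was thus the highest and the cyanidin array the lowest. The log2 ratio to DMSO was 1.5 with bilberry extracts, and 84 of 11612 genes well above background had a higher one. It was 0.54 with delphinidin and -0.11 with cyanidin. When the arrays were scaled to the spike-in control RNAs instead, which moved the median of all genes with bilberry extracts to -1.45, the bilberry ratio of Slc2a1 was -0.12. On none of the arrays was Slc2a3 (GLUT3), a high-affinity transporter typical of neurons, well above background, so no ratio is given.

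The promoters of 4 glycolysis genes are shown because they span the responses: Slc2a1 and Ldha were among the highest with bilberry extracts, Tpi1 was as high as Ldha, and Eno2 was the lowest. Each run holds the 250 bases before the gene start, 5′ to 3′ on the gene's own strand, from the RefSeq annotation of GRCm38.p6. Capitals mark ACGTG or GCGTG on either strand, the core letters recognized by hypoxia-inducible factor, a known activator of glycolysis genes. The Slc2a1 promoter is chr4:119108495-119108744 on the plus strand, the Ldha promoter chr7:46845554-46845803 on the plus strand, the Tpi1 promoter chr6:124814159-124814408 on the minus strand and the Eno2 promoter chr6:124769674-124769923 on the minus strand.
Slc2a1: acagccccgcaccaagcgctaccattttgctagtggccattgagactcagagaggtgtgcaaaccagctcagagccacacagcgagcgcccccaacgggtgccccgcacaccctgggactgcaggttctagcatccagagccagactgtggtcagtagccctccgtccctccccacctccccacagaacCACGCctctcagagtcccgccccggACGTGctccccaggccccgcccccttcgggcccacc
Ldha: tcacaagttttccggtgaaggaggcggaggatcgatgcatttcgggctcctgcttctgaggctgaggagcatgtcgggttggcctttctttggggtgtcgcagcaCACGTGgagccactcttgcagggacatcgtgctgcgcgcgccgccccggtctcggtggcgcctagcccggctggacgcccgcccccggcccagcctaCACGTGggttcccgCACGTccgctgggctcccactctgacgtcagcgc
Tpi1: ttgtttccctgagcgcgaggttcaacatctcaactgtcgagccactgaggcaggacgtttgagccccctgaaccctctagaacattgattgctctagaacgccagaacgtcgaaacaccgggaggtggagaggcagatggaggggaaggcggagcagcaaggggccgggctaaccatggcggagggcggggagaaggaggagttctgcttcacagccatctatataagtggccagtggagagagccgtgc
Eno2: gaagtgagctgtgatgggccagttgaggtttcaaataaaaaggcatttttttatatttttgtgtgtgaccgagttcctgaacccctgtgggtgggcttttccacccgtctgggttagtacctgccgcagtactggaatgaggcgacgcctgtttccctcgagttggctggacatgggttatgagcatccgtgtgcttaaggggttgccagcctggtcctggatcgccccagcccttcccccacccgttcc

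The Slc2a1 promoter held 2 such matches, 61 and 36 bases before the start. The Ldha window shown, the richer of 2 listed starts, held 5, of which 4 lie in 2 copies of CACGTG, a palindrome read on both strands and also the letters of an E-box. The window of the other Ldha start held 1 match and no CACGTG. No match was present in these windows of Tpi1 and Eno2, which says only that the letters are not there. ACGTG or GCGTG occurred in 44 of 59 promoters of the members (74.6%), in 21 of 28 promoters of the glycolysis genes (75%), in 11 of 14 of the citrate cycle genes (78.6%) and in 12679 of 32851 promoters of all genes (38.6%). These are counts of windows and not of genes, since a gene with several starts has several windows that can overlap, and 6 of the 11 citrate cycle windows belong to Ogdh. The 59 windows belong to 38 genes, which include Pck1 and leave out Gpd1, Idh3a and Slc2a3. The share of all genes is over the promoters of 27025 genes, which were not matched to the members in expression or base composition. The part of either in the higher share of the members was not tested. A match is a description of the sequence and not a binding site.

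**Figure D1:**
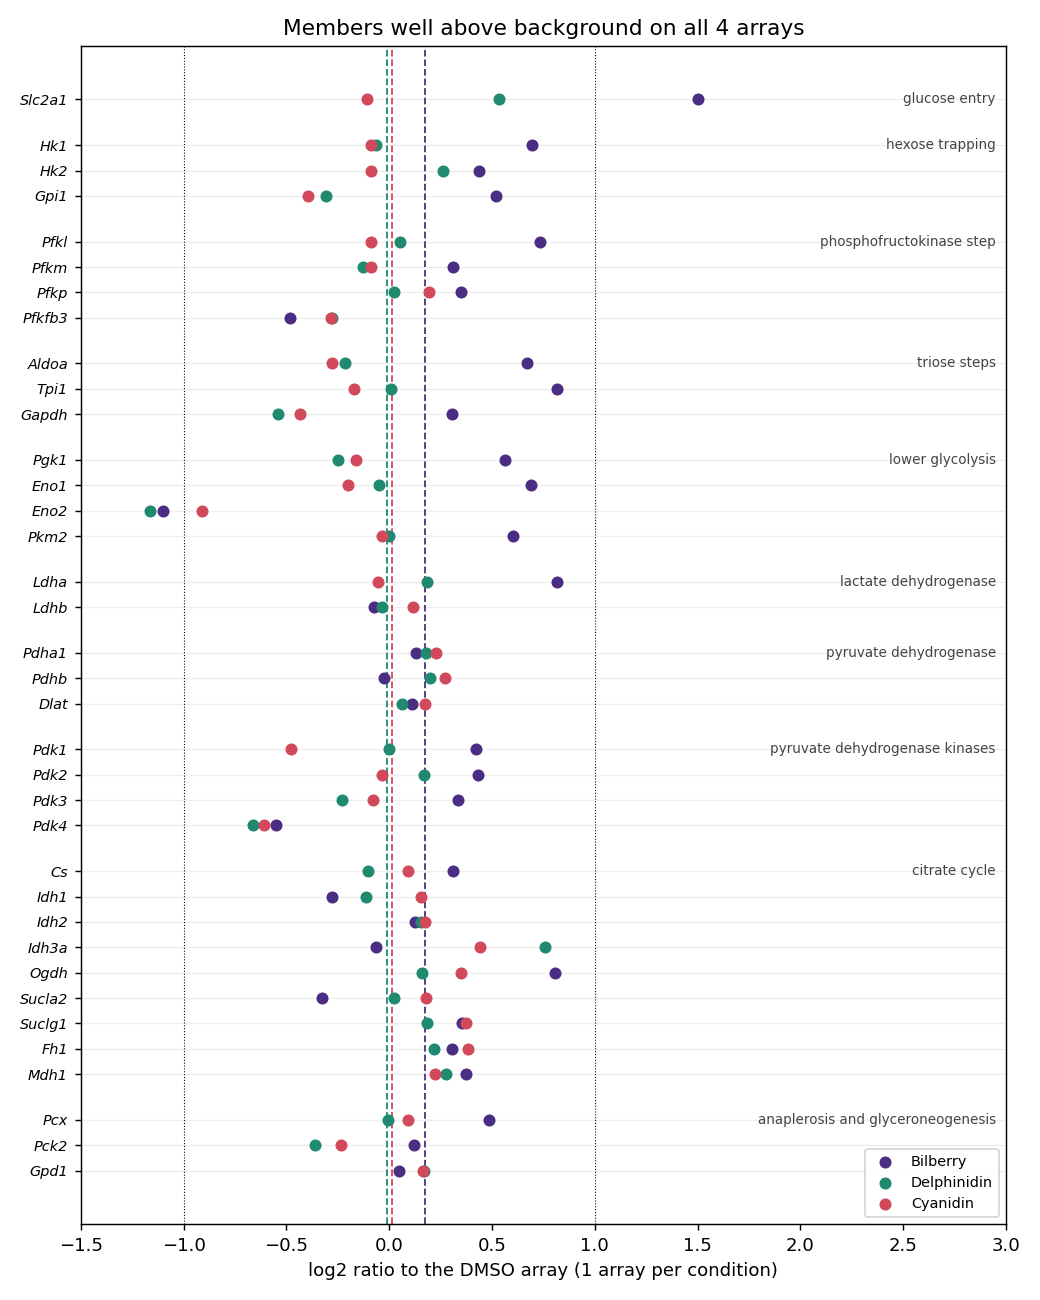
Log2 ratio to the DMSO array (x axis) for the 36 members well above background on all 4 arrays, grouped by role, with 1 point per treatment from 1 array each. Dashed lines give the median ratio of all genes in each treatment and dotted lines mark 2-fold. Most bilberry points of the glycolysis genes lie to the right of the bilberry line at 0.17, Slc2a1 farthest at 1.5 (-0.12 under spike-in scaling), while Eno2 lies at -1.10, -1.16 and -0.91.

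The hexokinase and isomerase steps trap glucose in the cell and turn it into fructose phosphate. Hk1, the housekeeping hexokinase, had scaled log2 signals of 3.74 with DMSO, 4.43 with bilberry extracts, 3.67 with delphinidin and 3.65 with cyanidin. Only the bilberry array stood apart, and the 5 Hk1 probes with a value on all arrays and well above background gave bilberry log2 ratios between 0.56 and 0.80. Hk2, the insulin-responsive hexokinase, gave 3.71, 4.15, 3.97 and 3.63, with bilberry highest and cyanidin lowest. Gpi1, which interconverts glucose and fructose phosphates, was spotted several times on each array and so has a spread within the array. Its scaled log2 signal was 6.77 ± 0.035 (SD, 7 spots) with DMSO, 7.29 ± 0.015 (7 spots) with bilberry extracts, 6.47 ± 0.021 (7 spots) with delphinidin and 6.38 ± 0.018 (8 spots) with cyanidin. The 4 arrays did not overlap for Gpi1 in this within-array spread. By their brightest probes, all 3 genes of this step were highest with bilberry extracts and lowest with cyanidin. Other probes differed: the 5 Hk1 probes above background gave cyanidin log2 ratios between -0.09 and 0.12, and a second Gpi1 probe gave 0.22 with bilberry extracts, 0.49 with delphinidin and -0.29 with cyanidin.

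Phosphofructokinase makes the committed step of glycolysis. Its liver-type subunit Pfkl had scaled log2 signals of 3.78 with DMSO, 4.52 with bilberry extracts, 3.83 with delphinidin and 3.69 with cyanidin, and the bilberry array stood apart from the rest. The muscle-type subunit Pfkm had log2 ratios of 0.31, -0.13 and -0.09 with bilberry extracts, delphinidin and cyanidin. The platelet-type subunit Pfkp had 0.35, 0.02 and 0.19, but its 3 probes spread from -0.15 to 0.40 with bilberry extracts. Pfkfb3, which makes the fructose bisphosphate that activates phosphofructokinase, had -0.48, -0.28 and -0.28 by its brightest probe, and its 3 probes ran from -0.48 to 0.65 with bilberry extracts, so that no direction can be given for it there. All 3 probes were below 0 with delphinidin, from -0.28 to -0.05, and with cyanidin, from -0.51 to -0.17.

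The triose steps split and oxidize the sugar phosphates. Tpi1, triose phosphate isomerase, had scaled log2 signals of 6.41 with DMSO, 7.23 with bilberry extracts, 6.42 with delphinidin and 6.24 with cyanidin. Aldoa, the aldolase of most tissues, gave 8.22, 8.89, 8.0 and 7.94. In both genes the bilberry array was highest, with log2 ratios to DMSO of 0.82 and 0.67, and the cyanidin array was lowest. Gapdh, glyceraldehyde phosphate dehydrogenase and a common reference gene, gave 7.41, 7.72, 6.87 and 6.98. Its log2 ratio was 0.31 with bilberry extracts, -0.54 with delphinidin and -0.43 with cyanidin. The lowest array for Gapdh was delphinidin, and 843 of 12088 genes had a lower delphinidin ratio. For Aldoc, the brain aldolase, the probe with values on all arrays was well above background on none of them, and a brighter probe had a marked spot on the DMSO array.

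Lower glycolysis yields ATP and pyruvate. Pgk1, phosphoglycerate kinase, was also spotted several times, and its scaled log2 signal was 7.33 ± 0.029 (SD, 10 spots) with DMSO, 7.89 ± 0.014 (10 spots) with bilberry extracts, 7.08 ± 0.039 (10 spots) with delphinidin and 7.17 ± 0.028 (9 spots) with cyanidin. Bilberry extracts gave the highest and delphinidin the lowest signal for Pgk1. Eno1, the common enolase, gave 2.16, 2.85, 2.11 and 1.96 from a probe whose transcript RefSeq lists for both Eno1 and Eno1b, so the pair cannot be separated. Pkm2 (Pkm), pyruvate kinase, gave 5.54, 6.15, 5.54 and 5.51 by its brightest probe, while another of its 3 probes gave a bilberry log2 ratio of -0.01. Pgam1, phosphoglycerate mutase, had a spot on the DMSO array that the software had marked as an outlier. Its other 3 arrays gave 7.58 with bilberry extracts, 6.87 with delphinidin and 6.89 with cyanidin, again with bilberry highest.

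Eno2 was the member with the lowest ratio in each treatment. Its probe at chr6:124726146-124726205 (mm8) gave scaled log2 signals of -0.75 with DMSO, -1.85 with bilberry extracts, -1.92 with delphinidin and -1.66 with cyanidin. The DMSO array alone was high, and the treated arrays farthest apart, delphinidin and cyanidin, had a log2 ratio of -0.25 between them. Eno2 fell 2.14 times with bilberry extracts and 2.24 times with delphinidin, where 154 of 12088 genes had a lower ratio. The log2 ratio with cyanidin was -0.91, just short of the 2-fold threshold. A second Eno2 probe, at its own place in the gene, gave -1.14, -2.26, -2.39 and -2.32, with log2 ratios of -1.12, -1.24 and -1.18, all past 2-fold. Eno2 was lower than DMSO in all 3 treatments under each alternative processing tried, with ratios from -2.72 to -0.16 with bilberry extracts, -1.2 to -0.93 with delphinidin and -1.05 to -0.75 with cyanidin. Because the same DMSO array stands in all 3 ratios, a high DMSO array and a low level in each treatment cannot be told apart.

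Lactate dehydrogenase links pyruvate to lactate, and its subunits differed. Ldha, the subunit that predominates in glycolytic tissues, had scaled log2 signals of 7.05 with DMSO, 7.87 with bilberry extracts, 7.23 with delphinidin and 7.0 with cyanidin (probe at chr7:46723561-46723620, mm8). Only the bilberry array stood well above the rest, 1.76 times DMSO. Ldhb, the subunit of oxidative tissues such as heart, gave log2 ratios of -0.07, -0.04 and 0.12, all within the spot error.

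**Figure D2:**
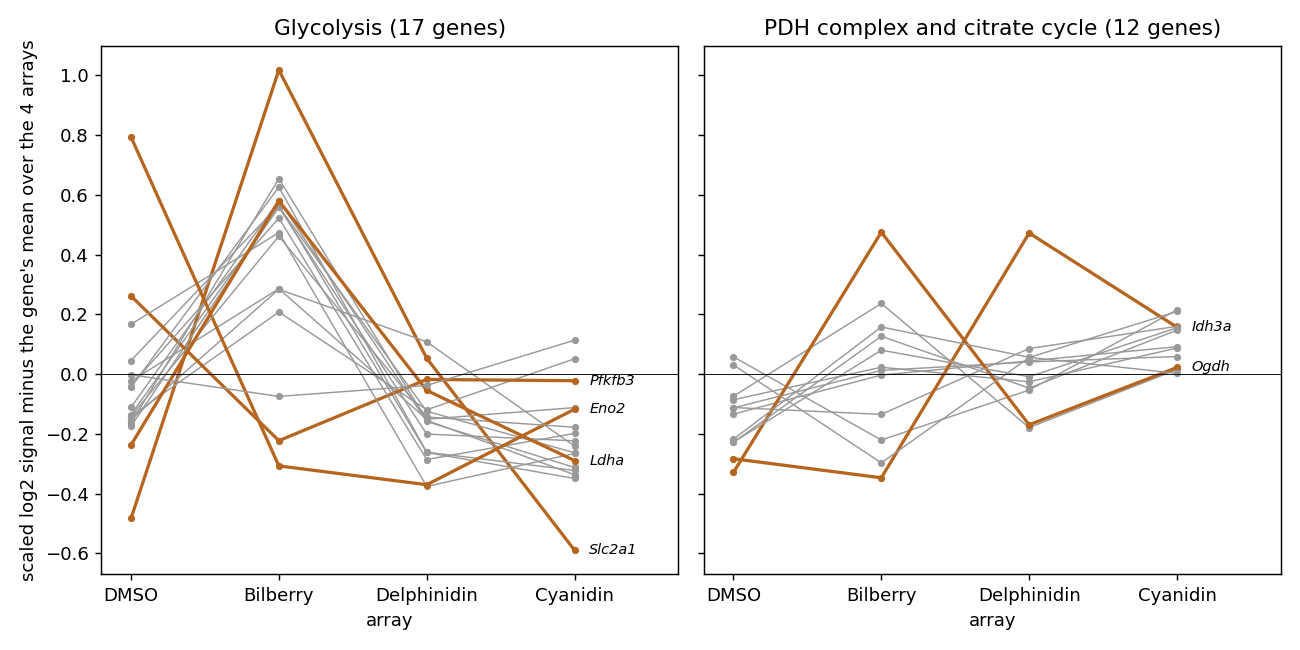
Scaled log2 signal of each gene minus its own mean over the 4 arrays (y axis), with 1 line per gene, for 17 glycolysis genes (left) and 12 genes of the pyruvate dehydrogenase (PDH) complex and the citrate cycle (right). Named genes are drawn in brown. Bilberry is the highest point of 14 of the 17 lines on the left, whereas cyanidin is the highest point for 5 of the 9 citrate cycle genes and all 3 PDH genes on the right.

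Counted together, 17 glycolysis genes were well above background on all arrays. Their median log2 ratio with bilberry extracts was 0.56, which is 0.39 above that of all genes. The bilberry array was the highest of the 4 for 14 of the 17, against 52.2% of all genes, and 14 of the 17 lay above the all-gene median, against 49.9%. The last count was 6 under the original normexp fit and 12 to 15 under the other alternatives, and under spike-in scaling 14 were above the all-gene median while 0 were above the DMSO array itself. At 2-fold 1 member rose with bilberry extracts (Slc2a1, background 4.69% of genes) and 1 fell (Eno2, background 6.7%). At 1.5-fold 9 members were higher (background 19.2%): Slc2a1, Hk1, Pfkl, Aldoa, Tpi1, Eno1, Pkm2, Ldha and, from the citrate cycle, Ogdh. Eno2 was the only member lower at 1.5-fold (background 13.8%). The 9 of 36 stand near the 19.2% of all genes, so the count at 1.5-fold is not by itself a result about the members.

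A comparison that does not rest on the DMSO array alone asked whether bilberry was above each of the other 3 arrays. At 2-fold no member was (background 1.14%), nor was any below each of them (background 2.88%). At 1.5-fold 8 members were (background 6.55%), and all 8 were glycolysis genes, namely Slc2a1, Hk1, Pfkl, Aldoa, Tpi1, Eno1, Pkm2 and Ldha. Among genes with a mean scaled log2 signal of 2 or more, 8 of 28 members passed, against 6.26% of 3848 genes. No member was below each of the other arrays by 1.5-fold (background 7.0%), but 35 of the 36 were under spike-in scaling, 4 under the original normexp fit and 1, Sucla2, with ratios centered by signal. The share of all genes below is not given for these alternatives, so these counts are not by themselves a result about the members. Under spike-in scaling the median bilberry log2 ratio of all genes was itself -1.45. The count of members above also depended on the processing, and is given here with the share of all genes. It was 6 under the refitted normexp background correction (5.2%), 7 with scaling to detected probes (6.03%) and 2 with ratios centered by array row (3.01%). It was 1 under quantile normalization (4.24%) and 1 with ratios centered by signal (2.94%). Under the original normexp fit it was 1 (24.0%), Pdk2 in place of a glycolysis gene, and under spike-in scaling 0 (0.0519%).

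The bilberry ratio of all genes differed with the signal of the probe, and 14 of the 17 glycolysis probes had a mean scaled log2 signal of 2 or more. Over all genes with a mean scaled log2 signal of 6 to 10 the median bilberry log2 ratio was 0.38 (269 genes), and the 6 glycolysis genes in that range had a median of 0.62. From 2 to 4 the medians were 0.26 over 2537 genes and 0.69 over 5 glycolysis genes, and from 4 to 6 they were 0.32 over 1042 genes and 0.31 over 3 glycolysis genes. After the running median of genes of like signal was subtracted, an alternative chosen after seeing the data, 13 of the 17 glycolysis genes were above 0 and their median was 0.19. The median of all genes of like brightness was thus also above 0 in each of these ranges. From 0 to 2 the median of all genes was 0.16, with Pfkp at 0.35 above it and Pfkfb3, by its brightest probe, at -0.48 below. From -2 to 0 Eno2 was the only glycolysis gene, at -1.10 against 0.01. The part of this signal dependence in the members' ratios was not tested further.

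**Figure D3:**
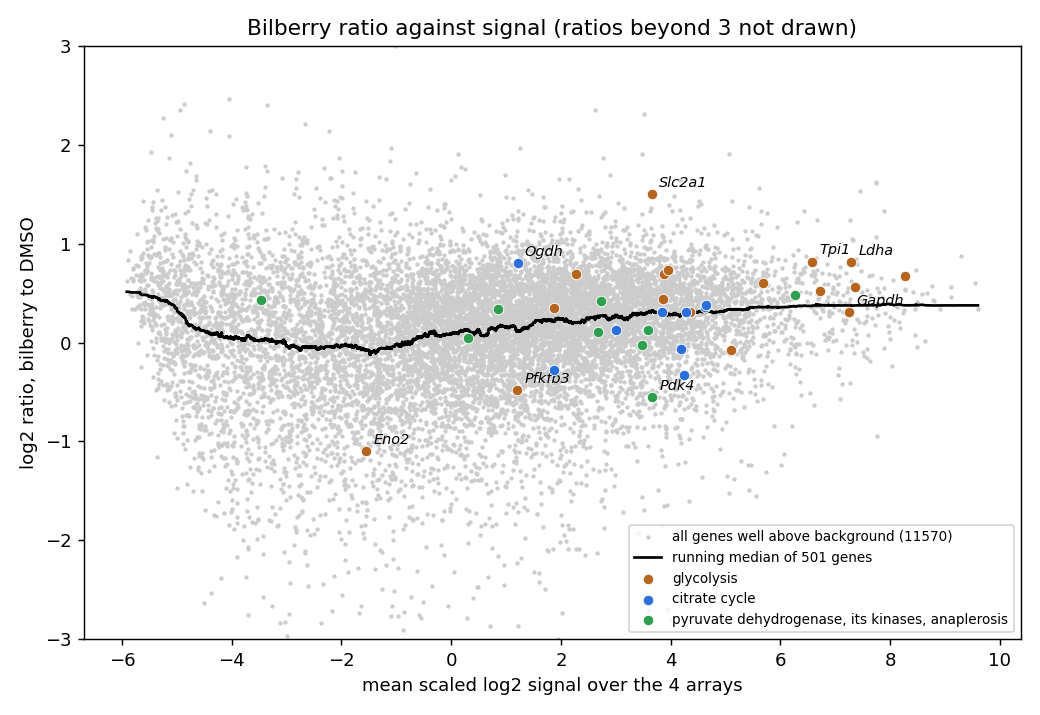
Log2 ratio of bilberry to DMSO (y axis) against the mean scaled log2 signal over the 4 arrays (x axis), with 1 gray point for each of 11570 genes, a running median of genes of like signal (black line) and the members in color. The median of all genes is 0.11 from -6 to -2, 0.01 from -2 to 0 and 0.38 among the brightest genes, and Slc2a1, Tpi1, Ldha and most other glycolysis genes lie above it, while Pfkfb3, Pdk4 and Eno2 lie below.

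With delphinidin the glycolysis genes were spread around the all-gene median. Of the 17, 7 were above it (background 51.2%), and the median log2 ratio of the 17 was -0.05. The count was 4 with ratios centered by signal and 5 under quantile normalization. Under spike-in scaling 7 of the 17 were above the all-gene median and 12 above the DMSO array itself. Slc2a1 had the highest ratio at 0.54, followed by Hk2 at 0.26 and Ldha at 0.18, while Gpi1 (-0.31), Gapdh (-0.54) and Eno2 (-1.16) were the lowest. At 2-fold 1 member fell, Eno2 (background 2.66%), and no member was higher (background 1.74%). At 1.5-fold the members were Idh3a higher (background 5.06%) and Eno2 and Pdk4 lower (background 7.26%).

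With cyanidin most glycolysis genes were slightly low. Of the 17, 2 were above the all-gene median, Pfkp at 0.19 and Ldhb at 0.12, against 51.1% of all genes, and the median log2 ratio was -0.11. The cyanidin array was the lowest of the 4 for 10 of the 17, against 17.1% of all genes. The ratios were small, and for 10 of the 15 genes below the median they were smaller than the spot error. Those beyond it were Gapdh (-0.43), Gpi1 (-0.39), Pfkfb3 (-0.28), Aldoa (-0.28) and Eno2 (-0.91). No member passed 2-fold with cyanidin (background 1.21% higher and 2.35% lower), and 2 members were lower at 1.5-fold, Eno2 and Pdk4 (background 6.96%), and none higher (background 3.79%). The other Pfkp probes gave cyanidin ratios of -0.53 and -0.34. A count of 2 above the all-gene median was obtained under every processing tried, but with the mean of a gene's probes Pfkp was at -0.22 and Hk1 at 0.02, so the genes were not the same, and under spike-in scaling 10 of the 17 were above the DMSO array itself.

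The pyruvate dehydrogenase complex commits pyruvate to acetyl-CoA. For Pdha1, its E1 alpha subunit, the scaled log2 signal was 3.43 with DMSO, 3.56 with bilberry extracts, 3.61 with delphinidin and 3.66 with cyanidin. Pdhb, the E1 beta subunit, gave 3.36, 3.34, 3.56 and 3.64, and Dlat, the acetyltransferase, gave 2.59, 2.70, 2.65 and 2.77. Cyanidin was the highest array for all 3 subunits, but the log2 ratios by their brightest probes were only 0.17 to 0.27. By these probes all 3 lay below the all-gene median with bilberry extracts. A second Pdha1 probe gave 0.25 with bilberry extracts, above that median, and 0.47 with cyanidin, and with the mean of a gene's probes 1 of the 3 was above it.

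The pyruvate dehydrogenase kinases, which switch the complex off, were not alike. Pdk1, a target of hypoxia-inducible factor, had scaled log2 signals of 2.75 with DMSO, 3.17 with bilberry extracts, 2.75 with delphinidin and 2.27 with cyanidin. Cyanidin was thus the lowest array for Pdk1, and its 2 probes had cyanidin log2 ratios of -0.48 and -0.22. Pdk2 had ratios of 0.43, 0.17 and -0.04, and Pdk3 of 0.34, -0.23 and -0.08. Pdk4, the kinase that is induced by fasting and by glucocorticoids and repressed by insulin, had scaled log2 signals of 4.12 with DMSO, 3.57 with bilberry extracts, 3.46 with delphinidin and 3.51 with cyanidin (probe at chr6:5433441-5433500, mm8). For Pdk4 the treated arrays lay together and DMSO stood above them, as for Eno2, and the same limit of the shared DMSO array applies. Its log2 ratios of -0.55, -0.66 and -0.61 were short of 2-fold and were below 0 under every processing tried.

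The citrate cycle oxidizes acetyl-CoA in mitochondria, and 9 of its members were well above background on all arrays. With cyanidin all 9 lay above the all-gene median (background 51.1%), under every processing tried, with log2 ratios from 0.09 for Cs to 0.44 for Idh3a and a median of 0.22. Cyanidin was the highest array for 5 of the 9 (background 13.2%) and DMSO the lowest for 5 (background 33.7%). With delphinidin 7 of the 9 lay above the all-gene median, with a median log2 ratio of 0.16. With bilberry extracts 5 did, and the ratios ranged from -0.33 to 0.80. The 5 became 1 under the original normexp fit and 3 under quantile normalization. None of the 9 passed 2-fold in any treatment. The background at 2-fold was 4.69% higher and 6.7% lower with bilberry extracts, 1.74% and 2.66% with delphinidin, and 1.21% and 2.35% with cyanidin.

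By the brightest probes, Idh3a, the catalytic subunit of the NAD-dependent isocitrate dehydrogenase, showed the widest spread of the cycle between arrays. Its probe at chr9:54401698-54401757 (mm8) gave scaled log2 signals of 3.91 with DMSO, 3.84 with bilberry extracts, 4.66 with delphinidin and 4.35 with cyanidin. Both anthocyanidins were above DMSO and bilberry extracts were not. The log2 ratio was 0.76 with delphinidin, which 324 of 12088 genes exceeded, and it ranged from 0.70 to 0.99 over the alternatives. The other isocitrate dehydrogenases depend on NADP: Idh2, the mitochondrial one, had ratios of 0.13, 0.15 and 0.17, and Idh1, the cytosolic one, had -0.28, -0.11 and 0.16.

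Ogdh, the E1 subunit of the oxoglutarate dehydrogenase complex, was the citrate cycle member with the highest bilberry ratio. Its scaled log2 signals were 0.88 with DMSO, 1.69 with bilberry extracts, 1.04 with delphinidin and 1.23 with cyanidin, with a log2 ratio of 0.80 for bilberry extracts and 0.77 by a second probe. Under spike-in scaling the first became -0.82. The succinyl-CoA ligase subunits went apart, because Suclg1, the shared alpha subunit, had bilberry, delphinidin and cyanidin ratios of 0.35, 0.18 and 0.38, whereas Sucla2, the ATP-specific beta subunit, had -0.33, 0.02 and 0.18. Both Sucla2 probes were below DMSO with bilberry extracts, the second by a log2 ratio of -0.68.

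Cs, citrate synthase, had ratios of 0.31, -0.10 and 0.09. Fh1, fumarate hydratase, had 0.31, 0.22 and 0.38, and Mdh1, the cytosolic malate dehydrogenase, had 0.38, 0.27 and 0.22. Mdh2, the mitochondrial one, had marked spots on 2 arrays and gave scaled log2 signals of 7.79 with DMSO and 7.97 with cyanidin. With its marked spots kept it gave 8.51 with bilberry extracts, a log2 ratio of 0.72, and 8.02 with delphinidin, a ratio of 0.23. Fh1 and Mdh1 were lowest with DMSO.

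Of the enzymes that feed carbon into or out of the cycle, Pcx, the pyruvate carboxylase that replenishes oxaloacetate, had scaled log2 signals of 6.13 with DMSO, 6.62 with bilberry extracts, 6.12 with delphinidin and 6.22 with cyanidin. The bilberry array was highest. Pck2, the mitochondrial phosphoenolpyruvate carboxykinase, had log2 ratios of 0.12, -0.36 and -0.23. Gpd1 is the glycerol phosphate dehydrogenase whose activity is a classical measure of adipocyte differentiation. Its brightest probe gave 0.05, 0.17 and 0.17, all within the spot error. A second Gpd1 probe, not well above background on the bilberry array, gave -0.39, -0.58 and -0.18.

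Delphinidin and cyanidin are anthocyanidins that differ by a hydroxyl group on the B ring, which delphinidin carries and cyanidin lacks, and they were compared at the same dose and day over 36 members. No member passed 2-fold between them (background 1.17% in each direction). At 1.5-fold 1 did, Slc2a1, which was higher with delphinidin by a log2 ratio of 0.64 ± 0.204 (spot error, background 3.13% higher and 2.91% lower), with 182 of 12242 genes having a higher ratio. Pdk1 followed at 0.48 by its brightest probe, Hk2 at 0.35 and Idh3a at 0.32, all higher with delphinidin. A second Pdk1 probe lay closer, with scaled log2 signals of 0.36 with delphinidin and 0.24 with cyanidin. The lowest were Idh1 at -0.27 and Eno2 at -0.25, lower with delphinidin. For 29 members the difference was within the spot error, which does not show that the compounds act alike, as 1 array of each leaves the difference between cultures unknown. The bilberry dose is a mass of extract and cannot be matched to either, so its values are given side by side only.

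**Figure D4:**
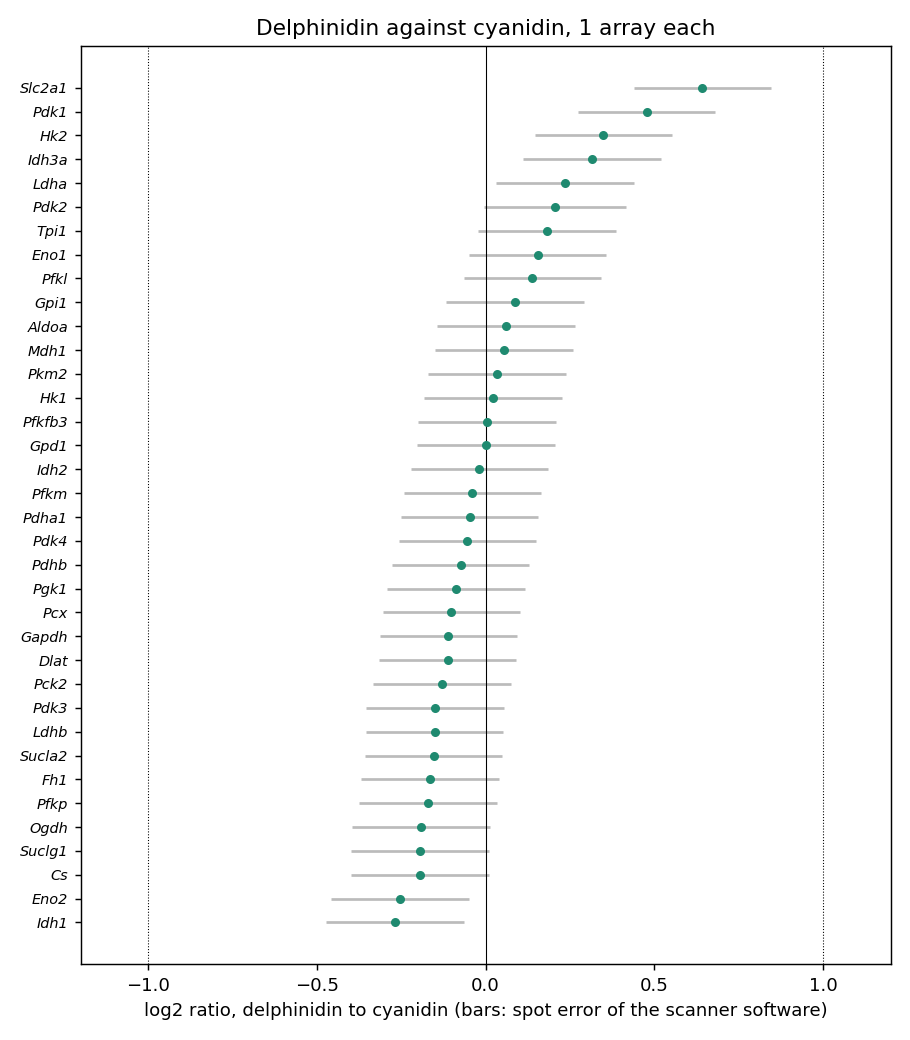
Log2 ratio of the delphinidin to the cyanidin array (x axis) for 36 members, sorted, from 1 array each. Bars are the spot error of the scanner software and dotted lines mark 2-fold. Slc2a1 is highest at 0.64, Pdk1 follows at 0.48, and no gene reaches 2-fold.

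Other genes of the pathway, listed by name, were read in the same way. Of 14 other pyruvate dehydrogenase and citrate cycle genes with a value, none passed 2-fold in any treatment (bilberry background 4.69% higher and 6.7% lower). Their median log2 ratios were 0.36 with bilberry extracts, 0.24 with delphinidin and 0.28 with cyanidin. As examples chosen after their values were seen, the pyruvate carrier subunits Mpc1 and Mpc2 had bilberry log2 ratios of 0.54 and 0.42, delphinidin ratios of 0.32 and 0.31 and cyanidin ratios of 0.41 and 0.50. Of the other isozymes and regulators of glycolysis, 9 with a detected signal on each of the 4 arrays had medians of -0.28, -0.33 and -0.12. Among the 12 well above background on any array, 1 was past 2-fold and higher with bilberry extracts, Pklr (the liver pyruvate kinase), by a bound because its DMSO signal was not well above background. The 1 that was lower was Slc2a4 (GLUT4), the insulin-responsive transporter of fat and muscle. It had scaled log2 signals of -1.22 with DMSO, -2.75 with bilberry extracts, -1.83 with delphinidin and -1.49 with cyanidin. Slc2a4 fell with bilberry extracts by 1.54 on the log2 scale. Under the scaling used here this was opposite in direction to Slc2a1, whose bilberry ratio was -0.12 under spike-in scaling.

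**Figure D5:**
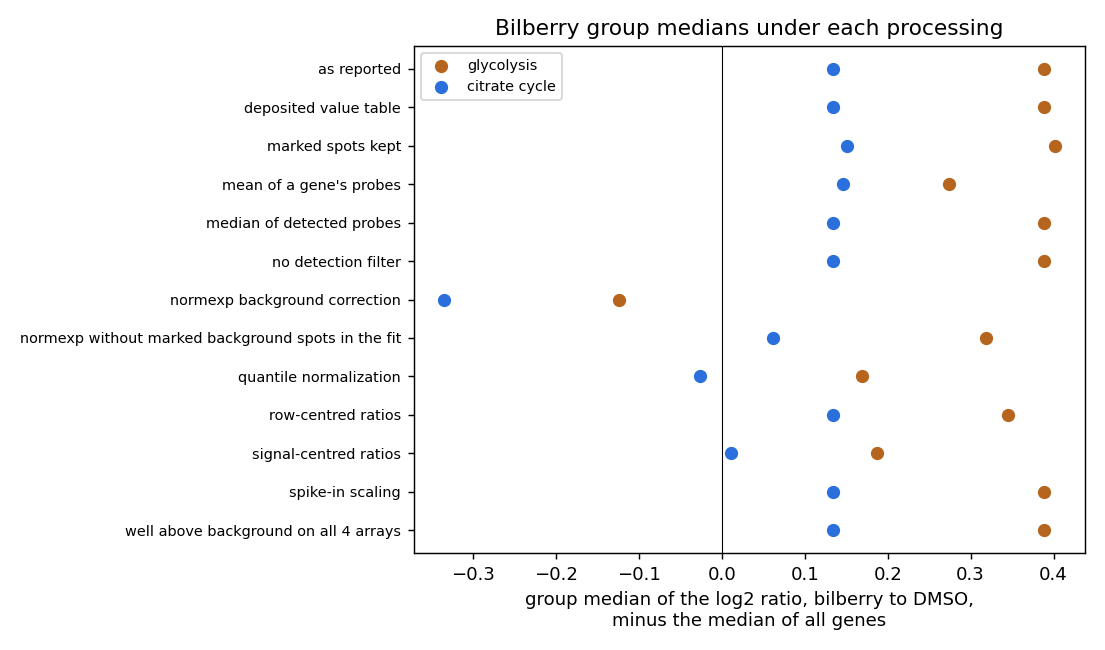
Median bilberry log2 ratio of 17 glycolysis genes (brown) and 9 citrate cycle genes (blue), minus the median of all genes (x axis), under each processing (rows). The glycolysis median is 0.39 as reported and above the citrate cycle median in every row, and both are below 0 under the original normexp fit (-0.12 and -0.33).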

How the data were processed

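RNA from 3T3-L1 cells on day 2 was measured on 1 Agilent single-color array for each treatment and for DMSO. The authors deposited the Feature Extraction output, in which the processed signal is an intensity per spot after subtraction of the local background. A deposited table of the whole series held the same intensity, with a largest difference of 0. All 4 arrays lay on 1 slide. Coordinates of probes are those of the files, on mm8.

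Control spots and spots marked as outliers in signal or local background (701 to 875 per array) were left out, spots of a probe were averaged, and log2 signals were scaled to the 75th percentile of their array over 43379 non-control spots. Each gene was represented by its brightest probe with values on all 4 arrays, and gene names were checked against RefSeq (GRCm38.p6), where the accessions of 59 of the 71 member probes led to the same gene. A gene was called past 2-fold, which has no test with 1 array per condition and so has a precision limited by the number of arrays. Where only 1 array of a pair was well above background the ratio was a bound. The SD of replicate spots, 0.033 to 0.039 on the log2 scale as a median over probes, covers spots of an array only.

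The members and the gene lists were chosen with earlier results of these data known. The 40 matched members were described. Of the other lists, the genes past 2-fold and well above background on all 4 arrays were described, beside examples named as such. Other single genes were also given, among them Pklr, Got1, Acly and Hif1a. The alternatives were 2 normexp background corrections (offset 50), quantile normalization, scaling to detected probes or to spike-in controls, 2 detection filters, marked spots kept, means over probes, ratios centered by row, the deposited table, thresholds of 1.5-fold and 3-fold and, chosen after seeing the data, ratios centered by signal. The calculations were tested on simulated data. Calculations were run in R 4.3.3 with limma 3.58.1 (normexp) and in Python 3.11.15 with pandas 2.3.3, numpy 2.4.6 and matplotlib 3.10.9.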

Additional observations from a re-analysis of the deposited data

Results flagged for a closer look

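The RNA spike-in controls, which enter the values above only where spike-in scaling is named, differed between arrays. Over 9 controls, the median difference in log2 processed signal, before scaling, between the bilberry and DMSO arrays was 0.94, with bilberry higher, and the differences ran from 0.10 for the control E1A_r60_1 to 1.04 for E1A_r60_a22. The like differences from DMSO were -0.04 with delphinidin and 0.0059 with cyanidin. The part of this difference in the members' bilberry ratios was not tested, and the values under spike-in scaling are given in the next section.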

How the results depend on the processing

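No paired analysis was possible because each condition had 1 array. Group medians below are log2 ratios relative to the median of all genes, and values of single genes are log2 ratios to DMSO. With bilberry extracts the glycolysis median of 0.39 was 0.27 with the mean of a gene's probes, -0.12 under normexp, 0.32 under normexp refitted without marked background spots, 0.17 under quantile normalization and 0.19 with signal-centered ratios (chosen after seeing the data). The citrate cycle median of 0.13 was -0.33 under normexp, 0.062 under the refit, -0.026 under quantile normalization and 0.012 with signal-centered ratios, and the median of all members, 0.17, was -0.21, 0.094, 0.047 and 0.052 under the same 4 settings. In the original normexp fit the fitted background mean of the bilberry array was -345, against -5.65 in the refit. With cyanidin the citrate cycle median of 0.21 was 0.34 with the mean of probes and 0.14 with signal-centered ratios. Spike-in scaling moved the median of all genes to -1.45 with bilberry extracts, 0.22 with delphinidin and 0.18 with cyanidin. The bilberry log2 ratio of Slc2a1 to DMSO went from 1.5 to -0.12, which was still above the bilberry median of all genes. Members past 2-fold numbered 2 with bilberry extracts and became 10 at 1.5-fold, 0 at 3-fold, 1 under the refit and 28 under spike-in scaling. Over all genes, the higher and lower counts past 2-fold were 587 and 838 as reported, and 307 and 428 under the refit. Under spike-in scaling they were 42 and 10354, so the 28 is not by itself a result about the members. The 1 member with delphinidin became 3 at 1.5-fold and 0 at 3-fold and under spike-in scaling. The 0 with cyanidin became 2 at 1.5-fold and 1 with the mean of probes, and the 0 between delphinidin and cyanidin became 1 at 1.5-fold. The 0 with bilberry apart from the other 3 arrays became 8 at 1.5-fold, all above (background 6.55%). It became 1 with no detection filter, 1 under normexp and 26, all below, under spike-in scaling. The share of all genes is not given for these last settings, so their counts are not by themselves a result about the members. Of genes past 2-fold with bilberry extracts 41.2% were higher, against 83.0% under normexp, 27.0% with row-centered ratios, 26.4% with signal-centered ratios and 0.404% under spike-in scaling. With delphinidin 39.5% became 63.5% under spike-in scaling, and with cyanidin 33.9% became 50.6% there and 46.2% under quantile normalization. The cause of these shifts was not tested. Signal over background limits Slc2a3, which gave no ratio. Aldoc gave none because its brighter probe had a marked spot on the DMSO array. With marked spots kept that probe gave -0.91 with bilberry extracts, where it was not well above background, 0.83 with delphinidin and 0.14 with cyanidin.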

Other observations

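The pentose phosphate pathway, which branches from glycolysis and makes NADPH and ribose, was well above background for all 8 listed genes. None passed 2-fold (bilberry background 4.69% higher and 6.7% lower). The median log2 ratios were 0.68 with bilberry extracts, 0.19 with delphinidin and 0.20 with cyanidin. As examples chosen after their values were seen, G6pdx, its first enzyme, had 0.94, 0.43 and 0.50, and Rpia, ribose phosphate isomerase, had 0.92, 0.40 and 0.63. The citrate export, malic enzyme and shuttle genes had like medians of 0.64, 0.29 and 0.27 over 11 genes well above background on all 4 arrays, with none past 2-fold. Got1, the cytosolic aspartate aminotransferase, had 0.78, 0.40 and 0.39, whereas Acly, which cleaves exported citrate, had -0.04, 0.03 and -0.02. These bilberry values stand beside an all-gene median of 0.17, and under spike-in scaling that median was -1.45.

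Hypoxia-inducible factor and its targets outside glycolysis did not share a direction with bilberry extracts. Over 21 genes well above background on all 4 arrays the median log2 ratios were 0.22, -0.08 and -0.20 with bilberry extracts, delphinidin and cyanidin. The like medians of all genes were 0.17, -0.01 and 0.02. Past 2-fold with bilberry extracts were Egln1, an oxygen-sensing prolyl hydroxylase, at a log2 ratio of 1.08 (background 4.69%) and Vegfa, the angiogenic growth factor, at -1.01 (background 6.7%). Hif1a itself had a bilberry log2 ratio of -0.63, short of 2-fold. Epas1, a second alpha subunit of the factor, had -1.24 with cyanidin, from a scaled log2 signal of -4.70 with DMSO to -5.94. The lowest signal well above background on the cyanidin array was -6.54. Of the regulators of these genes, Tfam, which maintains mitochondrial DNA, had scaled log2 signals of 5.09 with DMSO, 6.47 with bilberry extracts, 5.06 with delphinidin and 5.12 with cyanidin. Under the scaling used here bilberry alone stood apart for Tfam. Its value under spike-in scaling, where the median bilberry log2 ratio of all genes was -1.45, is not given. Slc16a7, a monocarboxylate transporter named here because of its value, was well above background on the cyanidin array only, at -2.47.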
